A study of Mus musculus with 75 samples.

Results

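The DNA replication machinery was followed here as 39 mouse genes that together license origins, unwind and copy DNA and supply its building blocks. They were listed by name, with earlier results of these data known, and each had a row in both deposited count tables, 39 of 41388 mouse gene IDs. RNA was sequenced from haematopoietic stem cells (HSC), haematopoietic progenitor cells (HPC), pre-granulocyte-monocyte cells (pGM) and granulocyte-monocyte progenitors (GMP) of 8-week-old mice, in 75 libraries and 20 groups. Kmt2c encodes a histone methyltransferase, also known as Mll3. In the first experiment, 48 untreated libraries gave 4 for each population in wild type (wt), heterozygous (het, Kmt2c f/+; Vav-Cre) and knockout (ko, Kmt2c f/f; Vav-Cre) mice. In the second, 27 libraries of wt and ko HSC and HPC came from mice given PBS or interleukin-1 (IL-1, 0.5 µg per mouse for 3 days), with 4 HSC libraries a group (3 for wt after IL-1) and 3 HPC libraries a group. Vav-Cre is active throughout blood cell development and deletes the floxed (f) Kmt2c allele there. The wt label names no Cre, so in ko or het against wt the loss of Kmt2c and the presence of Cre cannot be told apart. Nothing in the labels says that libraries of a group came from separate animals, so p-values measure only the spread between these libraries. In 11 of the 20 groups (4 ko groups of the first experiment and 7 of the 8 groups of the second) some libraries had under 5 CPM (counts scaled to a common total) of 4 Y-linked genes together and others over 100, so those groups hold RNA of more than 1 animal. In the other 9 groups the Y-linked genes do not show this. Xist RNA ran from 1.601 to 66.6 CPM in untreated wt HSC and 0.335 to 49.5 in wt HPC. It ran from 0.279 to 46.4 in wt pGM and 0.313 to 14.6 in wt GMP. Het values were 0.96 to 45.4 in HSC, 0.378 to 105 in HPC, 0.131 to 3.74 in pGM and 0.338 to 0.399 in GMP. In wt HSC after IL-1 it ran from 0.41 to 85.9. Whether these libraries came from separate animals was not tested. Part of the spread may be technical. In het GMP every library held Y-linked RNA (189 to 298 CPM), and such low Xist cannot tell animals apart.

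Before a cell copies its DNA, the origin recognition complex with Cdc6 and Cdt1 loads rings of the MCM helicase onto origins. When S phase starts, Cdc45 and the GINS complex turn these rings into active helicases, polymerase alpha-primase lays down primers, and polymerases delta and epsilon extend them, held on DNA by the PCNA clamp that the RFC complex loads. RPA covers the exposed single strands, Fen1 and Lig1 join the lagging-strand fragments, and ribonucleotide reductase, thymidylate synthase and thymidine kinase make the deoxynucleotides. Transcription of many of these genes rises as cells pass from G1 into S under the E2F factors. HSC of adult marrow rest for most of the time, and committed progenitors divide more often.

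The promoters of 5 members are shown first because words that E2F factors are known to bind were frequent among the members. Of the 39 members, 32 matched RefSeq's promoter table (mouse build GRCm38.p6, 27018 genes), which runs from 250 bases before each start to 50 after it. The 250 bases before the start are printed 5′ to 3′, with E2F words in capitals. The words searched, on both strands, were TTTCCCGC, TTTGGCGC, TTTCGCGC and TTTGCCGC, and some matches overlap. Mcm6, a subunit of the helicase ring, lies at chr1:128359706-128359955 on the minus strand and holds 3 such words. Orc1, the largest subunit of the origin recognition complex, lies at chr4:108579204-108579453 on the plus strand and holds 1. Mcm5, another ring subunit, lies at chr8:75109259-75109508 on the plus strand and holds 2 that overlap. Cdc6, the loader, lies at chr11:98907901-98908150 on the plus strand and holds 1. Rrm2, the regulatory subunit of ribonucleotide reductase, lies at chr12:24708004-24708253 on the plus strand and holds none.
Mcm6: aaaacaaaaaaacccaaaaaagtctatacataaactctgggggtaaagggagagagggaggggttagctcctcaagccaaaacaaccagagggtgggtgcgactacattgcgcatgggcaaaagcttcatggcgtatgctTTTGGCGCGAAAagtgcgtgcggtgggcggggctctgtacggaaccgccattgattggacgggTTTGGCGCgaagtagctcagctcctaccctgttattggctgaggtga
Orc1: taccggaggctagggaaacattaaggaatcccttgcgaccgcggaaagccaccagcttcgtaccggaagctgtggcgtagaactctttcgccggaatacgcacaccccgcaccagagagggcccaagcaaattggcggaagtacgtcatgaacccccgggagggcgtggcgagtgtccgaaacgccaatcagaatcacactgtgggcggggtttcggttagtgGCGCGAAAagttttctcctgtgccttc
Mcm5: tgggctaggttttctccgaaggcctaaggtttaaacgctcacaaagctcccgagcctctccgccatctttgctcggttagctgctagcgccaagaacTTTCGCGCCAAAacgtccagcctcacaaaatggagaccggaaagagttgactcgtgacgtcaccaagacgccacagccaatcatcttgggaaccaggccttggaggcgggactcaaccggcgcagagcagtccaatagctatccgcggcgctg
Cdc6: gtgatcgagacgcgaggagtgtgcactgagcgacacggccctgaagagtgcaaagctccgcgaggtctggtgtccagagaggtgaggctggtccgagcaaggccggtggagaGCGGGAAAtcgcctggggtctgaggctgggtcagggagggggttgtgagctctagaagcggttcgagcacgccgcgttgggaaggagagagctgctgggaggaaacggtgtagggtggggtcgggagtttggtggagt
Rrm2: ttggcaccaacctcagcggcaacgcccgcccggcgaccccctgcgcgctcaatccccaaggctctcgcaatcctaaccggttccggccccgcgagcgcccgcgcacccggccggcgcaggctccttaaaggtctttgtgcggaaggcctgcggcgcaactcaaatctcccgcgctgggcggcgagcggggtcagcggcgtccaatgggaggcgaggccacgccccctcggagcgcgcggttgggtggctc

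At the first listed start, 12 of the 32 matched members (37.5%) held an E2F word, against 2.32% of all 27018 genes. It was not particular to them. The share was 46.7% in a list of E2F and G1/S regulators and 31.8% in a list of further replication factors. In the other lists used below it was 0.0% to 12.5%. Over all listed starts of each gene, 13 members held 1 (40.6%, against 2.61% of genes): Mcm3, Mcm5, Mcm6, Mcm7, Gins3, Orc1, Cdc6, Cdt1, Pola1, Pold1, Pole2, Rfc3 and Lig1. The CCAAT word, read by the factor NF-Y, stood in 65.6% of member promoters and in 37.9% of all genes. In the other lists it stood in 33.3% to 81.8%, the highest being a mitosis list. TTTGAA, the element called CHR that marks many mitotic promoters, stood in 12.5% of member promoters and 18.1% of all genes, and in 72.7% of the 22 matched genes of the mitosis list. A match is only a run of letters, and a missing match says only that these letters are not in this window. The median log2 change against HSC of the 13 members with an E2F word was 0.75 in HPC, 1.28 in pGM and 1.3 in GMP, and that of the 19 without 1 was 0.94, 1.18 and 1.39.

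Total counts per library ran from 13273928 to 20814531 in the first experiment and from 18649343 to 42826325 in the second. All values below are counts scaled to a common library total (CPM) with TMM factors over the libraries of an experiment, and each gene was tested with edgeR's quasi-likelihood test, with Benjamini-Hochberg adjustment over all genes and a call at an adjusted p under 0.05. Kmt2c checked the labels: in the first experiment it stood at 50.9 ± 7.68 CPM in wt HSC, 35.6 ± 3.23 in het HSC and 16 ± 2.11 in ko HSC (SD, n = 4), and ko was lower than wt in every population (adjusted p from 3.15e-05 to 0.0309). In the second experiment, the library labelled wt HSC after IL-1, replicate 1, had 14.0 CPM of Kmt2c, inside the range of the ko libraries (12.7 to 25.6), while the other two of its group had 41.6 and 42.6. Its summed cycling markers Mki67, Top2a and Ccnb1 were at 382 CPM, and those of the others at 201 and 219. For main fits that rest on it, medians and counts of members are given with and without it. Other values that rest on it include it unless stated. In the first experiment ko replicates 1 and 4 of every population had under 5 CPM of 4 Y-linked genes together, and every wt and het library had at least 59.0 CPM, so the ko and wt groups also differ in this. In the second experiment such libraries made up 1 of 4 wt and 3 of 4 ko HSC after PBS, 0 of 3 and 3 of 4 after IL-1, 2 of 3 wt and 2 of 3 ko HPC after PBS, and 1 of 3 and 2 of 3 after IL-1. Markers fixed for each population went with the labels: the summed HSC markers had a median of 3734 CPM in wt HSC and 322 in GMP, and the pGM and GMP markers 2392 and 149430.0. HSC libraries of the second experiment are titled HSC although their cell-type field reads HPCs, and were taken as HSC, and their summed HSC markers reached 2372 to 3789 CPM in wt.

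Nearly all replication genes were lower in HSC than in HPC, pGM and GMP. Of the 39 members, 33 were higher in wt HPC than in wt HSC, 38 in pGM and 38 in GMP, and 0 were called lower. Across all 15110 genes tested, 12.5% were called higher and 10.2% lower in HPC, 20.7% and 20.7% in pGM, and 27.5% and 33.7% in GMP. The median log2 change of the members was 0.88 in HPC, 1.23 in pGM and 1.3 in GMP, beside -0.02, -0.02 and -0.16 for all genes. The 3 comparisons share the same 4 HSC libraries. The members' mean log2 CPM was 6.08 ± 0.10 in HSC, 6.92 ± 0.084 in HPC, 7.25 ± 0.12 in pGM and 7.52 ± 0.080 in GMP (SD, n = 4). Every HPC, pGM and GMP library stood above every HSC library on this scale. The cycling markers Mki67, Top2a and Ccnb1 moved with the members, from a sum of 163 to 199 CPM in HSC to 484 to 622 in HPC, 611 to 893 in pGM and 511 to 763 in GMP, and their part in the result was not tested. In bulk RNA, fewer cells in S phase and less replication RNA per cell cannot be told apart.

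**Figure D1:**
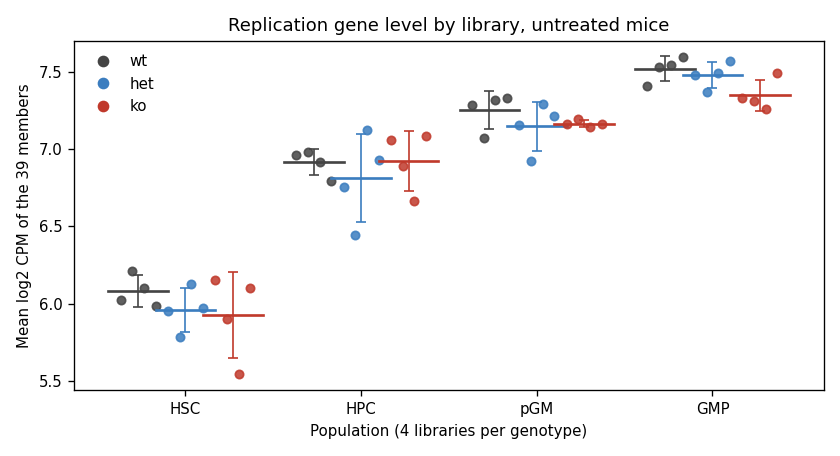
Mean log2 CPM of the 39 replication genes (y axis) in each library of HSC, HPC, pGM and GMP by genotype (x axis), with the group mean and SD. The wt means climb from 6.08 in HSC to 7.52 in GMP, and the genotypes of a population overlap.

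The 6 subunits of the MCM ring, which unwinds DNA ahead of the fork, counted 5, 6 and 6 called members in HPC, pGM and GMP against HSC, with median log2 changes of 0.69, 1.33 and 1.38. Mcm2 stood at 126, 138, 164 and 152 CPM in the 4 HSC libraries, 186, 225, 254 and 252 in HPC, 393, 307, 367 and 369 in pGM and 279, 426, 345 and 468 in GMP. Mcm5 stood at 231, 381, 349.9 and 304 CPM in the 4 HSC libraries, 644, 750.5, 639.7 and 559 in HPC, 914, 793, 927 and 1071 in pGM and 947, 1354, 1260.0 and 1327 in GMP. In both genes every HPC library exceeded every HSC library, and pGM and GMP libraries overlapped each other. Mcm5 was 2.05-fold higher in HPC, 2.93-fold in pGM and 3.86-fold in GMP (log2 change 1.95, SE 0.22, adjusted p = 3.97e-10). Mcm7 had a log2 change of 1.46 in pGM (SE 0.18, adjusted p = 7.9e-09). Mcm6 varied widely between libraries, with 304, 356, 356 and 219 CPM in the 4 HSC libraries, 284, 286, 583 and 596 in HPC, 934, 703, 939 and 574 in pGM and 590.3, 773, 428 and 932 in GMP. Of its HPC libraries 2 fell inside the HSC range and 2 far above it. Its log2 change was 0.50 (SE 0.33, adjusted p = 0.29) in HPC, without a call, and 1.35 (SE 0.33, adjusted p = 0.00106) in pGM.

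The helicase partners, which bind the ring and start it, included some of the largest changes. Of their 6 genes, 5, 6 and 6 were called in HPC, pGM and GMP, with median log2 changes of 1.08, 1.42 and 2.01. Gins1, a GINS subunit, stood at 17.4, 22.1, 19.7 and 18.5 CPM in the 4 HSC libraries, 64.5, 60.0, 43.8 and 42.4 in HPC, 62.4, 56.3, 65.5 and 67.9 in pGM and 104, 77.3, 104 and 89 in GMP. No HSC library came near the lowest library of any other population. HPC showed a log2 change of 1.44 (SE 0.19, 2.71-fold, adjusted p = 7.8e-08), and GMP a log2 change of 2.27 (SE 0.19, 4.82-fold, adjusted p = 8.54e-14). Cdc45, which joins GINS and the ring, stood at 33.3, 36.8, 32.9 and 38.1 CPM in the 4 HSC libraries, 86, 80.0, 74.8 and 73 in HPC, 83, 78.3, 120.1 and 125 in pGM and 198, 186, 224 and 214 in GMP. Each GMP library lay above every pGM library and far above every HSC library. In GMP it showed a log2 change of 2.54 (SE 0.22, 5.83-fold, adjusted p = 3.38e-13). Cdc45 overlaps Ufd1 in the annotation, and how strand was handled in counting is not stated, so its count may hold reads of that neighbour. Mcm10, which helps to activate the helicase, was a low gene at 13.5, 19.7, 14.8 and 15.2 CPM in the 4 HSC libraries, 28.8, 35.5, 37.8 and 24.6 in HPC, 52.5, 45.4, 49 and 60.0 in pGM and 66.9, 91.2, 67.4 and 88.9 in GMP, with a 4.98-fold change in GMP. Gins3 had the smallest changes of the group, 0.48 in HPC, 0.62 in pGM and 0.60 in GMP, and was not called in HPC (adjusted p = 0.054). With library size in place of TMM its GMP change was -0.02 (adjusted p = 0.929).

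All 4 licensing genes were called in each of the 3 populations, with median log2 changes of 0.84, 1.27 and 1.65. Cdc6, which recruits the ring to origins, stood at 42.1, 67.6, 54.4 and 56.2 CPM in the 4 HSC libraries, 107, 139.6, 119 and 108 in HPC, 163, 156, 163 and 185 in pGM and 196, 229, 239 and 261 in GMP. The 4 populations did not overlap in their Cdc6 values, which climbed from HSC to GMP. Cdc6 was 2.15-fold higher in HPC, 3.03-fold in pGM and 4.19-fold in GMP (adjusted p = 8.83e-11). Orc1, whose promoter is printed above, stood at 5.68, 10.8, 5.51 and 7.79 CPM in the 4 HSC libraries, 13.3, 15.3, 15.6 and 13 in HPC, 22.1, 18.9, 19.9 and 26.9 in pGM and 30.6, 30.4, 44.6 and 42.2 in GMP, and its GMP change was 4.96-fold. Each GMP library of Orc1 was higher than each library of the other populations. Orc6, the smallest origin recognition subunit, and Cdt1, the partner of Cdc6 in loading, changed less, by 1.24 and 1.06 on the log2 scale in GMP.

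Polymerase alpha-primase makes the primers, and its 4 genes were called in each population against HSC, with median log2 changes of 0.91, 1.22 and 1.15. Pola1, the catalytic subunit, stood at 30.8, 32.5, 33.1 and 41.6 CPM in the 4 HSC libraries, 56.6, 49.1, 72.4 and 54.7 in HPC, 82, 72.6, 82.4 and 92.7 in pGM and 57.5, 66.8, 65.7 and 84.1 in GMP. Its means were 34.5 ± 4.85 in HSC, 58.2 ± 9.99 in HPC, 82.4 ± 8.2 in pGM and 68.5 ± 11.2 in GMP, with the GMP libraries between 57.5 and 84.1 and overlapping both HPC and pGM. The log2 change was 0.75 in HPC, 1.26 in pGM and 0.99 in GMP. Prim1 and Prim2, the primase subunits, had GMP log2 changes of 1.3 and 1.55.

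Polymerases delta and epsilon hold the exception of the whole set. Pold1, Pold2 and Pole2 were called in each of the 3 comparisons, and Pole, the catalytic subunit of polymerase epsilon, in none. Pole stood at 57.3, 66.7, 54.6 and 53.8 CPM in the 4 HSC libraries, 53.8, 52.8, 63.8 and 49.1 in HPC, 69.6, 53.4, 73.1 and 62.7 in pGM and 44.8, 51.5, 36.4 and 59.2 in GMP. The libraries of all 4 populations overlapped, and its log2 changes were -0.08 (SE 0.19, adjusted p = 0.808), 0.15 (SE 0.19, adjusted p = 0.532) and -0.28 (SE 0.19, adjusted p = 0.203). Its partner subunit Pole2 stood at 27.9, 22.7, 30.1 and 20.5 CPM in the 4 HSC libraries, 51.7, 57.4, 39.8 and 43.5 in HPC, 54.7, 49.3, 45 and 65 in pGM and 75.8, 73, 81.7 and 71.9 in GMP. Pole2 thus had no HSC library in the range of another population, and GMP showed a log2 change of 1.58 (SE 0.18, 2.99-fold, adjusted p = 5.41e-10). The ratio of Pole2 to Pole CPM within a library was 0.44 ± 0.096 in HSC, 0.889 ± 0.20 in HPC, 0.841 ± 0.18 in pGM and 1.64 ± 0.45 in GMP (SD, n = 4).

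Of the 6 genes of the clamp and its loader, 4, 6 and 6 were called, with median log2 changes of 0.78, 0.96 and 1.04. Pcna, the sliding clamp, stood at 81.3, 76.3, 78.9 and 74.4 CPM in the 4 HSC libraries, 173, 175, 127 and 122 in HPC, 130.0, 134, 156 and 161 in pGM and 163, 179, 192 and 156 in GMP. Its step came between HSC and HPC, and the HPC, pGM and GMP ranges overlapped. Rfc2, a small loader subunit, went the same way at 222, 313, 291 and 233 CPM in the 4 HSC libraries, 540.1, 559, 517 and 469 in HPC, 545, 540.1, 636 and 676 in pGM and 533, 555, 609 and 554 in GMP (log2 change 0.98, SE 0.14, 1.97-fold, adjusted p = 8.27e-07 in HPC). Rfc1, the large loader subunit, stood at 66.8, 79.7, 79.3 and 57.8 CPM in the 4 HSC libraries, 84.9, 67.4, 122 and 64.3 in HPC, 128, 106, 124 and 143 in pGM and 108, 132, 95 and 142 in GMP. Its HPC libraries overlapped the HSC range (log2 change 0.26, SE 0.22, adjusted p = 0.448), and its pGM and GMP changes were 0.82 and 0.75. Rfc5 was likewise not called in HPC, at 0.23 (SE 0.35, adjusted p = 0.702).

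Fen1, the flap endonuclease, and Lig1, the ligase that seals lagging-strand fragments, were called in each population, with GMP log2 changes of 2.01 and 1.27. Rpa1, the large subunit of the single-strand binding complex, stood at 176, 295, 269 and 191 CPM in the 4 HSC libraries, 330.5, 356, 349 and 264 in HPC, 449, 361, 448 and 498 in pGM and 343, 521, 466 and 532 in GMP. Its HSC and HPC libraries overlapped (log2 change 0.48, SE 0.20, adjusted p = 0.0722), and it was called in pGM (0.92) and GMP (1.00). Rpa2 and Rpa3 were called in all 3 comparisons, Rpa2 with a log2 change of 0.88 (SE 0.13, 1.83-fold, adjusted p = 1.2e-06) in HPC.

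The genes of nucleotide supply were all called in each population, with median log2 changes of 1.14, 1.34 and 1.85. Rrm2, which carries the radical that ribonucleotide reductase needs, stood at 87.3, 109, 102 and 130.4 CPM in the 4 HSC libraries, 309, 319, 269 and 222 in HPC, 438, 339.7, 406 and 412 in pGM and 823, 961, 906 and 885 in GMP. The 4 populations did not overlap, and GMP stood highest by far. The GMP change was the largest of all members, with a log2 change of 3.06 (SE 0.22, 8.35-fold, adjusted p = 6.85e-16). Its catalytic partner Rrm1 stood at 206, 312, 254 and 276 CPM in the 4 HSC libraries, 464, 493, 508 and 389 in HPC, 678, 549, 637 and 703 in pGM and 646, 853, 850.5 and 912 in GMP, and changed by 1.64 on the log2 scale in GMP. The ratio of Rrm2 to Rrm1 CPM within a library was 0.411 ± 0.051 in HSC, 0.603 ± 0.064 in HPC, 0.622 ± 0.027 in pGM and 1.11 ± 0.13 in GMP, and no GMP library overlapped another population in it. Tk1, the salvage kinase for thymidine, stood at 62.5, 70.7, 59.2 and 60.9 CPM in the 4 HSC libraries, 175, 167, 127 and 131 in HPC, 154, 139.9, 180.1 and 185 in pGM and 265, 241, 299.9 and 245 in GMP. Tk1 was 2.36-fold higher in HPC and 4.15-fold in GMP (adjusted p = 9.31e-13), and it overlaps Afmid in the annotation. Tyms, thymidylate synthase, had a GMP log2 change of 1.62.

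**Figure D2:**
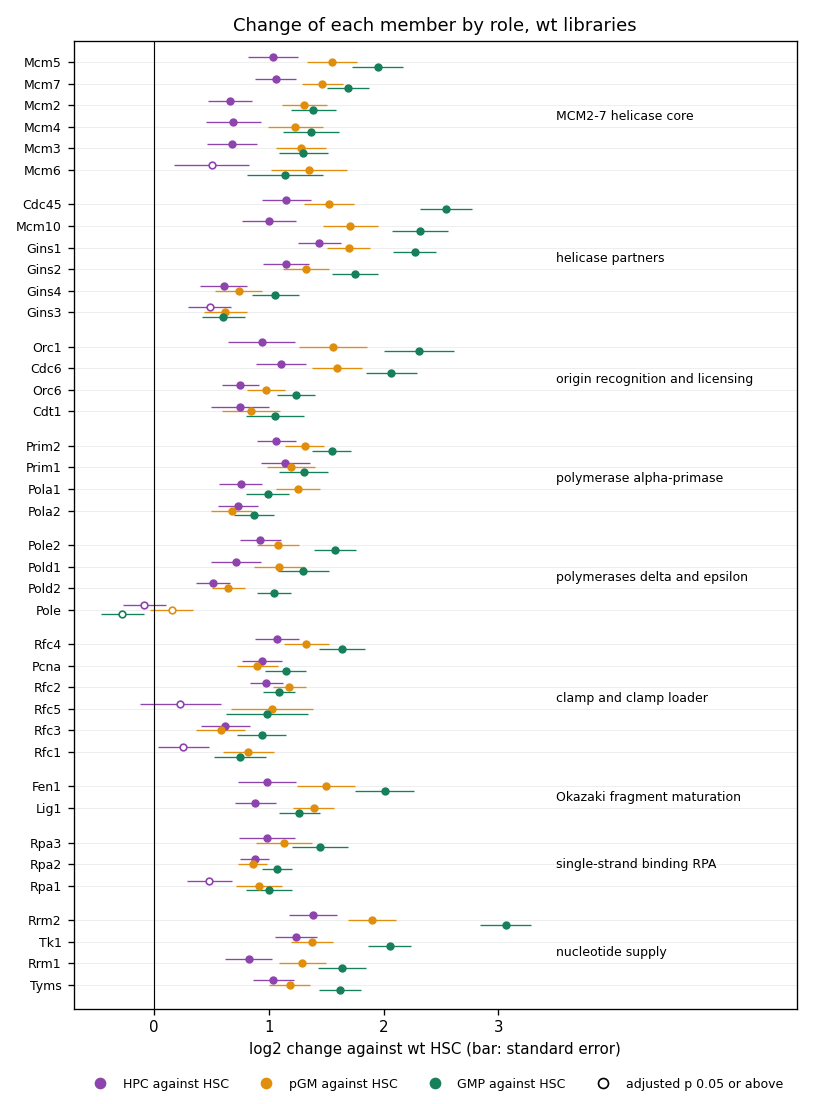
Log2 change ± SE of each of the 39 members (rows, grouped by role) in wt HPC, pGM and GMP against wt HSC, with open points where the adjusted p was 0.05 or more. Rrm2 reaches 3.06 in GMP, and Pole lies between -0.28 and 0.15.

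**Figure D3:**
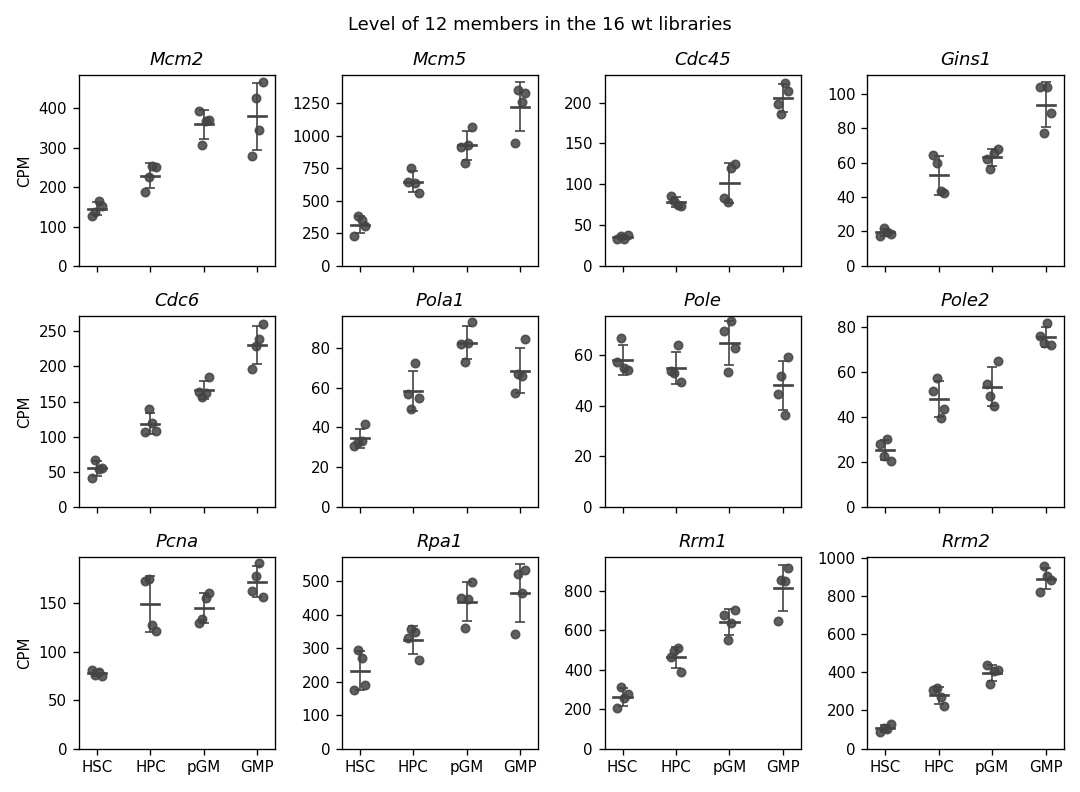
CPM after TMM scaling (y axis) of 12 members in the 16 wt libraries of the first experiment, by population (x axis), with the mean and SD. Pole stays flat, from 58.1 in HSC to 48 in GMP, while Pole2, Rrm2 and Cdc45 are highest in GMP.

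Libraries did not overlap between HSC and HPC for 32 of the 39 members, with HPC higher, against 14.3% of all genes. The same held for 35 members in pGM (22.6% of genes) and 35 in GMP (26.4% of genes). In all, 12 members overlap another protein-coding gene in the annotation, and of the 27 that do not, 22, 26 and 26 were called higher in HPC, pGM and GMP. Scaling mattered most in GMP. With library size in place of TMM, the median of all genes in GMP against HSC moved from -0.16 to -0.78 and that of the members from 1.3 to 0.68. Of the members, 29 were then called higher and 1, Pole, lower, and the share of all calls that were higher went from 45.0% to 20.5%. In pGM that share went from 50.1% to 30.4% and the median of all genes to -0.29, and in HPC from 55.0% to 37.8% and to -0.18. The members' median stood 1.46 above that of all genes in GMP under both scalings. Scaling moves all genes of a library alike, so this difference could hardly change and is no check of the result.

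The steps between progenitors were smaller. In pGM against HPC, 3 members were called higher and 0 lower, against 5.59% and 6.36% of genes, with a median of 0.26 beside -0.004 for all genes. They were Mcm2 at 0.65 (SE 0.19, adjusted p = 0.0213), Mcm10 at 0.71 (SE 0.23, adjusted p = 0.0392) and the ligase Lig1 at 0.51 (SE 0.18, adjusted p = 0.0482). Lig1 stood at 199.6, 185, 223 and 163 CPM in HPC and 258, 207, 315 and 316 in pGM. The HPC and pGM ranges of Mcm2 and Mcm10 did not overlap, and those of Lig1 did. With library size in place of TMM 0 members were called, and the share of all calls that were higher went from 46.8% to 29.6%. The count was also 0 without HPC library 1 or 2 or pGM library 1, 3 or 4, was 1 without HPC library 4, and was 5 without HPC library 3. In all, 12 members had pGM libraries above every HPC library, against 11.0% of genes.

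GMP exceeded pGM in 8 members, and 0 were lower, against 11.0% and 18.0% of genes, with a median of 0.25 beside -0.11 for all genes. Rrm2 led with a log2 change of 1.16 (SE 0.21, 2.24-fold, adjusted p = 1.82e-05). Cdc45 followed with a log2 change of 1.02 (SE 0.21, 2.02-fold, adjusted p = 0.000218). Then came Tk1 at 0.67 (SE 0.18, adjusted p = 0.00338) and Gins1 at 0.57 (SE 0.18, adjusted p = 0.0143). The other 4 were Pole2 at 0.50, the delta subunit Pold2 at 0.40, Orc1 at 0.75 and Mcm10 at 0.60. GMP libraries lay above every pGM library in 15 members, against 15.4% of genes. With library size in place of TMM the call held for Rrm2 and Cdc45, 4 members (Lig1, Pola1, Pole and Rfc2) were called lower, and the members' median became -0.11, with 14 of 39 higher. All genes then had a median of -0.47, and 12.3% of calls were higher, against 37.8% with TMM, so a direction between pGM and GMP for the set as a whole depends on the scaling. Without TMM the members' mean log2 CPM was 7.24 in pGM and 7.15 in GMP. Leaving out GMP library 3 gave 4 calls, pGM library 1 or 3 gave 5, and pGM library 2 gave 3.

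Per kilobase of exon, the members differed widely within a population. In wt HSC the lowest was Mcm10 at 2.05 CPM per kb and the highest Mcm3 at 115, and in HPC the ends were Orc1 at 4.10 and Mcm3 at 185. In pGM they were Pola2 at 4.39 and Mcm3 at 280.4. In GMP, Pole was lowest at 4.30 CPM per kb and Rrm2 highest at 323.

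Other genes that work beside the 39 were called mostly higher against HSC, and are to be read against the 12.5%, 20.7% and 27.5% of all genes called higher in HPC, pGM and GMP. Of 28 further replication factors, 14, 21 and 22 were called higher in HPC, pGM and GMP, and 0 lower. They were led by Rnaseh2a, which removes RNA primers, and Timeless, which guards the fork, at GMP log2 changes of 1.3 and 2.10. Of 8 chromatin assembly genes, 5, 7 and 7 were called higher, with the histone chaperones Nasp at 2.13 and Asf1b at 1.85. Of 24 mitosis genes, 24 were called higher in each population, with median log2 changes of 1.44, 1.70 and 1.86. The mitotic kinases Aurkb and Aurka had GMP log2 changes of 2.50 and 2.34. Among 20 E2F, pocket protein and G1/S regulators the calls went both ways, 11 higher and 5 lower in GMP. The E2F partners Tfdp1 and Tfdp2 were opposite, at 1.48 (SE 0.16, adjusted p = 2.04e-10) and -1.45 (SE 0.17, adjusted p = 7.19e-10). Of 12 other nucleotide synthesis genes, 9 were higher and 2 lower in GMP, led by Umps and Shmt1 at 1.55 and 1.57. Of 12 S phase checkpoint genes, 8 were higher and 1 lower, with the checkpoint clamp loader Rad17 at 0.87. With library size in place of TMM, the GMP calls were 16 higher and 5 lower for the further replication factors, 5 and 1 for chromatin assembly, 21 and 0 for mitosis, and 7 and 2 for nucleotide synthesis. The E2F and G1/S regulators then had 7 higher and 6 lower with a median of -0.06 (0.57 with TMM), and the checkpoint genes 3 higher and 4 lower, so a direction of these 2 lists in GMP depends on the scaling.

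The second experiment gave the HPC and HSC comparison again in other libraries, from wt mice given PBS (3 HPC and 4 HSC libraries). Here 15 members were called higher and 0 lower, against 6.46% and 7.36% of 17511 genes, and all 39 had a positive change, with a median of 0.81 beside -0.02 for all genes. HPC libraries lay above every HSC library in 20 members, against 11.3% of genes. Of the 33 members called in the first experiment 14 were called here (42.4%), and of the 15 called here 14 were called there (93.3%), all but Mcm6. Rrm2 had 89.7, 47.3, 97 and 40.7 CPM in HSC and 342, 337 and 172 in HPC. Its lowest HPC library lay above the highest HSC library, giving a log2 change of 2.05 (SE 0.33, 4.13-fold, adjusted p = 7.52e-05). Pola1 had 43.7, 35.5, 38.5 and 31.5 CPM in HSC and 68.8, 90.4 and 55.8 in HPC, again without overlap (log2 change 0.94, SE 0.21, 1.92-fold, adjusted p = 0.00236). Rrm1 had 271, 157, 280.2 and 135 CPM in HSC and 495, 442 and 372 in HPC (log2 change 1.05, SE 0.26, 2.07-fold, adjusted p = 0.00596). Gins1 followed at 1.49 (SE 0.37, adjusted p = 0.00663), and the others called were Cdc6, Mcm10, Prim2, Lig1, Cdt1, Mcm7, Pole2, Rpa3, Mcm4, Fen1 and Mcm6. Tk1 (log2 change 0.76, SE 0.38, adjusted p = 0.205) and Pole (log2 change 0.25, SE 0.23, adjusted p = 0.558) were not called. The count fell to 3 without HPC library 1, 6 without HPC library 2, 5 without HSC library 2 and 7 without HSC library 4.

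Deletion of Kmt2c was the next comparison, asking whether replication RNA differs between genotypes within a population. No member was called in ko, het and wt comparisons of any population by the main edgeR fits, and DESeq2 called 1, Rrm2 in GMP. In HSC, 39 members had a median ko against wt log2 change of -0.14, beside 0.01 for all genes, with 7 of 39 higher. In HPC the median was 0.02, with 22 higher, in pGM -0.07, with 7 higher, and in GMP -0.15, with 9 higher, beside 0.03 for all genes in GMP. Across all genes, 1.78% were called in HSC, 1.1% in HPC, 1.94% in pGM and 0.555% in GMP. At an unadjusted p under 0.05 the ko against wt comparisons held 2 members in HSC, 0 in HPC, 2 in pGM and 5 in GMP, all lower. Of all genes 10.7%, 8.26%, 9.2% and 9.32% had such a p, in either direction, so the members' share was below that in HSC, HPC and pGM and above it in GMP. With Y-linked RNA as a covariate the counts were 13, 0, 4 and 9, all lower, beside 9.91%, 8.18%, 9.92% and 10.7% of genes. The members' mean log2 CPM was 5.92 ± 0.28 in ko HSC, 6.93 ± 0.19 in ko HPC, 7.17 ± 0.020 in ko pGM and 7.35 ± 0.10 in ko GMP (SD, n = 4).

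In the edgeR test the smallest p of a member between ko and wt was that of Rrm2 in GMP, with all libraries in 1 fit that of Cdt1 in HSC, and with the Y-linked covariate that of Pole in HSC. Rrm2 stood at 823, 961, 906 and 885 CPM in wt GMP, 803, 704, 884 and 838 in het and 639, 619.6, 619 and 617 in ko. The 4 ko libraries lay close together and below every wt and het library. The summed pGM and GMP markers ran from 100980 to 133440 CPM in ko GMP and from 136860 to 169580 in wt, and the macrophage markers from 75.3 to 93.2 and from 101 to 172 (2 of the 7 genes averaged under 1 CPM in each), both without overlap. Of 24 mitosis genes, 20 had a lower value in ko GMP (median -0.30) and 7 an unadjusted p under 0.05, among them Plk1 at -0.84, Aurka at -0.57 and Ccnb1 at -0.54, and 0 were called. The part of these in the Rrm2 values was not tested. The log2 change of ko against wt was -0.51 (SE 0.12, adjusted p = 0.0982) by edgeR and -0.51 (SE 0.12, adjusted p = 0.00225) by DESeq2, so the call depends on the test. In other edgeR fits of the same libraries its adjusted p was higher, at 0.109 with RLE scaling, 0.17 with library size, 0.224 with the replicate number as a block, 0.232 with Y-linked RNA as a covariate and 0.265 with all libraries in 1 fit, and leaving out any 1 library gave 0 calls. With library size, the GMP medians of ko against wt were -0.04 for the members and 0.13 for all genes, and 52.3% of all calls were higher, against 35.8% with TMM. Rrm1 had 574, 451, 571 and 667 CPM in ko and 646, 853, 850.5 and 912 in wt, with ranges that overlap (log2 change -0.52, SE 0.16, adjusted p = 0.234). Mcm7 had 538, 455, 626 and 620.2 CPM in ko and 639, 787, 757 and 753 in wt, without overlap (log2 change -0.38, SE 0.15, adjusted p = 0.418). Every ko library lay below every wt library in GMP for 5 members, Rrm2, Mcm7, Cdc6, Cdc45 and the RPA subunit Rpa2, against 3.12% of genes. In GMP of ko against het mice, Rrm2 again had the smallest p (log2 change -0.37, SE 0.12, adjusted p = 0.735) and was the 1 member at an unadjusted p under 0.05 (4.45% of genes), with 0.0166% of genes called and a members' median of -0.16. With the Y-linked covariate Pola1 (-0.49), Rrm2 (-0.38), Rrm1 (-0.47), Pole (-0.57) and Lig1 (-0.42) had such a p there, all lower, and none was called. Het against wt GMP had a members' median of -0.07, 0.00828% of genes called, 0 members at an unadjusted p under 0.05 (2.78% of genes), and Pole2, Gins4 and Prim1 as the smallest p (each adjusted p = 0.973).

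In HSC, the smallest p between ko and wt belonged to Pole. Pole stood at 48.1, 33, 29.5 and 45.7 CPM in ko and 57.3, 66.7, 54.6 and 53.8 in wt, without overlap (log2 change -0.58, SE 0.18, adjusted p = 0.135). With Y-linked RNA as a covariate, since ko replicates 1 and 4 had under 5 CPM, its log2 change was -0.82 (SE 0.17, adjusted p = 0.022), the only call, and the members' median moved from -0.14 to -0.32. That call rests mostly on ko replicates 2 and 3, at 33 and 29.5 CPM of Pole, beside 48.1 and 45.7 in replicates 1 and 4. The adjusted p of Pole was 0.0551 by DESeq2, and 0.131 to 0.158 in edgeR with RLE scaling, library size, a replicate block or all libraries in 1 fit. Macrophage markers summed to 64.0 to 128 CPM in wt HSC and 17.3 to 33.6 in ko (0 and 2 of 7 genes averaged under 1 CPM). Megakaryocyte-platelet markers summed to 213 to 265 and 108 to 141 (2 of 6 in each), and stroma and endothelium markers to 53.9 to 85.9 and 22.6 to 46.2 (4 and 5 of 7). None of the 3 overlapped between wt and ko, and their part in the ko HSC values was not tested. Cdt1 stood at 19.8, 12.6, 23 and 16.2 CPM in ko and 55.3, 25.9, 16.6 and 26.6 in wt, with overlapping ranges (log2 change -0.81, SE 0.32, adjusted p = 0.351). Cdc6 followed at -0.30 (SE 0.20, adjusted p = 0.64). Het against wt HSC had 2 members at an unadjusted p under 0.05, both lower (Gins3 -0.61 and Mcm6 -0.67, both adjusted p = 0.807), beside 5.49% of genes, a median of -0.14 and 0.00724% of genes called. Ko against het HSC had 1 (7.19% of genes), Rpa2 at -0.29 (SE 0.13, adjusted p = 0.659), with a median of -0.005 and 0.326% of genes called. With the Y-linked covariate Lig1 (-0.56), Tk1 (-0.70), Pole (-0.58), Rpa2 (-0.39), Mcm3 (-0.38) and Mcm4 (-0.39) had such a p, all lower. Their adjusted p ran from 0.396 to 0.916, so none was called.

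In HPC the ko against wt comparison was led by Lig1 at 0.28 (SE 0.15, adjusted p = 0.73), Rfc1 at 0.37 and Rrm2 at 0.31, and with the Y-linked covariate Rrm2 was at 0.007. Ko against het HPC had 3 members at an unadjusted p under 0.05, all higher: Rrm2 at 0.55 (SE 0.22, adjusted p = 0.682), Prim2 at 0.46 and Tk1 at 0.36, beside 6.21% of genes, with 0.196% of genes called and a median of 0.07. With the Y-linked covariate 0 members had such a p, Rrm2 was at 0.22 (SE 0.24) and the median was -0.04. Het against wt HPC had 1 (4.22% of genes), Pola2 at -0.36 (SE 0.16, adjusted p = 0.963), with 0.00753% of genes called and a median of -0.10. In pGM, Cdc6 was 139 ± 11.6 CPM in ko and 167 ± 12.4 in wt (log2 change -0.25, SE 0.11, adjusted p = 0.424), and Pole 53.3 ± 4.69 and 64.7 ± 8.7 (log2 change -0.27, SE 0.13, adjusted p = 0.527). Het against wt pGM had 4 members at an unadjusted p under 0.05 (7.35% of genes), all lower, led by Rfc5 at -0.75 (SE 0.23, adjusted p = 0.483) and Mcm6 at -0.70 (SE 0.28, adjusted p = 0.631), with 0.0155% of genes called and a median of -0.05. Ko against het pGM had 0 (8.59% of genes), with 0.564% of genes called, a median of -0.005 and Rpa2 as the smallest p (log2 change -0.17, SE 0.09, adjusted p = 0.673).

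The ko effect itself was compared between populations by an interaction term. HPC minus HSC had 0 calls and 3 members at an unadjusted p under 0.05 (6.86% of genes), with 0.232% of genes called and a median of 0.11. The pGM minus HSC and GMP minus HSC differences had 0 calls and 1 member each at that level (5.02% and 9.65% of genes), with 0.218% and 0.39% of genes called and medians of 0.04 and -0.04. Cdt1 had the smallest p in all 3, at 0.89 (SE 0.35, adjusted p = 0.618), 0.76 (SE 0.35, adjusted p = 0.911) and 0.89 (SE 0.35, adjusted p = 0.373), and these share the HSC libraries. DESeq2 called 0 in each of them.

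**Figure D4:**
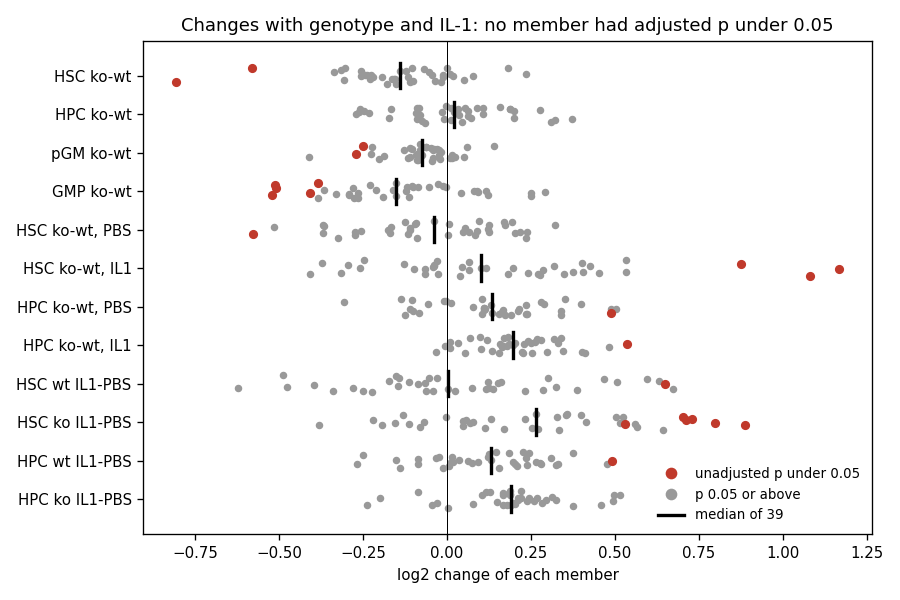
Log2 change of each of the 39 members (points) in 12 genotype and IL-1 comparisons, with the median as a black line and points at an unadjusted p under 0.05 in red. No member passed the adjusted threshold in the main edgeR fits, and the medians lie between -0.15 (ko against wt GMP) and 0.27 (IL-1 against PBS in ko HSC).

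IL-1 was the last comparison, asking whether a 3-day course changes replication RNA in HSC and HPC of either genotype. No member was called in wt or ko HSC or HPC, by the main edgeR fits or DESeq2. The members' median log2 change was 0.002 in wt HSC, 0.27 in ko HSC, 0.13 in wt HPC and 0.19 in ko HPC, and 20, 30, 30 and 34 of 39 were higher. Across all genes 0.2%, 0.212%, 0.947% and 0.433% were called, with medians of 0.03, -0.01, -0.01 and 0.003. At an unadjusted p under 0.05 there were 1, 6, 1 and 0 members, all higher, beside 7.82%, 8.79%, 10.1% and 6.86% of all genes in either direction, so the members' share was above that of all genes in ko HSC only. The members' mean log2 CPM was 6.16, 5.54, 6.23 and 5.62 in the 4 wt PBS HSC libraries, 6.40, 5.72 and 5.56 after IL-1, 6.06, 5.64, 5.46 and 6.09 in ko PBS and 6.48, 6.04, 6.10 and 5.87 in ko IL-1. The groups overlapped.

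**Figure D5:**
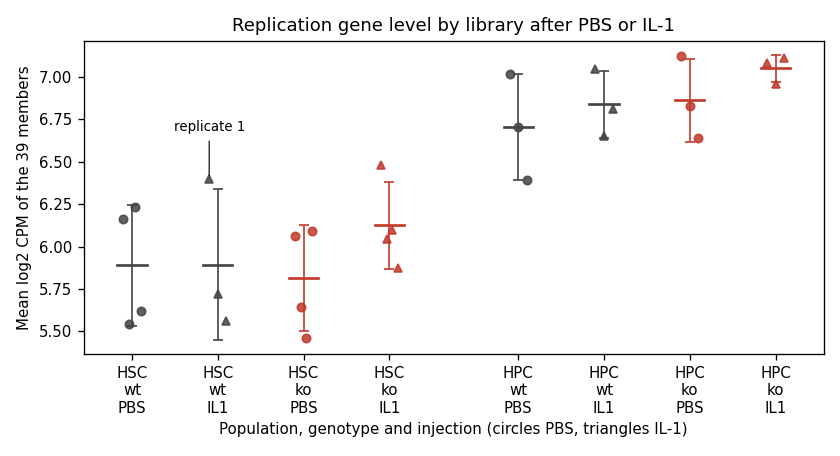
Mean log2 CPM of the 39 members (y axis) in each library of HSC and HPC by genotype and treatment (x axis), with the group mean and SD. HSC libraries lie between 5.46 and 6.48, HPC libraries between 6.39 and 7.12, and within each population the groups overlap. Replicate 1 of wt HSC after IL-1 is marked.

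Values of the HSC libraries show this spread gene by gene. Mcm2 stood at 239.6, 127, 152 and 81.4 CPM in wt HSC after PBS, 166, 70.7 and 75 in wt HSC after IL-1, 169.6, 129.5, 119.6 and 81.2 in ko HSC after PBS and 314, 184, 163 and 119 in ko HSC after IL-1. Mcm5 stood at 321, 158, 329.9 and 159 CPM in wt HSC after PBS, 363, 173 and 151 in wt HSC after IL-1, 287, 230.5, 184 and 237 in ko HSC after PBS and 485, 256, 273 and 225 in ko HSC after IL-1. In both, the wt IL-1 library with the highest value was replicate 1, the library with little Kmt2c. Cdc6 read 57.2, 35.9, 62.5 and 26 CPM in wt HSC after PBS, 67.3, 34.9 and 37.6 in wt HSC after IL-1, 44.9, 27.6, 29.8 and 47.2 in ko HSC after PBS and 69.4, 45.6, 56.5 and 28.2 in ko HSC after IL-1. Pola1 read 43.7, 35.5, 38.5 and 31.5 CPM in wt HSC after PBS, 55.2, 31.3 and 35.3 in wt HSC after IL-1, 38.7, 26.9, 28.1 and 38.2 in ko HSC after PBS and 48.4, 50.6, 49.8 and 41.9 in ko HSC after IL-1. Pola1 was higher after IL-1 in every ko library than in any ko PBS library, and the wt groups overlapped. Pcna read 161, 113, 198 and 149 CPM in wt HSC after PBS, 218, 162 and 115 in wt HSC after IL-1, 165, 141, 93.5 and 318 in ko HSC after PBS and 189, 137, 146 and 148 in ko HSC after IL-1. Rfc1 read 125, 118, 107 and 62 CPM in wt HSC after PBS, 121, 79.1 and 71.8 in wt HSC after IL-1, 115, 89.2, 84.6 and 95.5 in ko HSC after PBS and 144, 119, 105 and 53.7 in ko HSC after IL-1. The clamp and its large loader subunit overlapped in all groups, with 1 ko PBS library at 318 CPM of Pcna. Rpa1 gave 282, 190.1, 262 and 153 CPM in wt HSC after PBS, 302, 157 and 152 in wt HSC after IL-1, 254, 217, 184 and 175 in ko HSC after PBS and 359, 231, 269.5 and 202 in ko HSC after IL-1. Rrm2 gave 89.7, 47.3, 97 and 40.7 CPM in wt HSC after PBS, 187, 69.7 and 64.4 in wt HSC after IL-1, 87.3, 49.3, 61 and 88.8 in ko HSC after PBS and 120.4, 126, 135 and 89 in ko HSC after IL-1. Tk1 gave 65.5, 36.3, 90.3 and 49.7 CPM in wt HSC after PBS, 125, 68.6 and 51.6 in wt HSC after IL-1, 72.8, 53.4, 29.8 and 145 in ko HSC after PBS and 75.3, 63.5, 81.7 and 92.1 in ko HSC after IL-1. Rrm2 was at least 89 CPM in every ko IL-1 library and at most 88.8 in every ko PBS library.

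In ko HSC, IL-1 against PBS was led by Pola1 at 0.53 (SE 0.20, adjusted p = 0.448), the loader subunit Rfc5 at 0.70 (SE 0.26, adjusted p = 0.448) and Cdt1 at 0.89 (SE 0.34, adjusted p = 0.456). Rfc5 had 81.3, 70.4, 67.6 and 24.2 CPM after PBS and 116, 98.2, 88.3 and 92.2 after IL-1, and Cdt1 28.9, 14.6, 26 and 18.2 and 51.3, 34.5, 43.5 and 32.4. Every IL-1 library lay above every PBS library for 5 members, Pola1, Rfc5, Cdt1, Orc1 and Rrm2, against 2.49% of genes. Beside them, the mitosis genes had a median of 0.73, with 10 of 24 at an unadjusted p under 0.05, the further replication factors 0.27 with 7 of 28, and the E2F and G1/S regulators 0.34 with 7 of 20, against the same 8.79% of all genes. The summed erythroid markers of ko HSC ranged over 133 to 418 CPM after PBS and 359 to 560.5 after IL-1 (1 and 3 of the 7 genes averaged under 1 CPM). Those of wt HSC ranged over 80.9 to 136 CPM after PBS and 554 to 632 after IL-1, and their part in these values was not tested. The sums hide opposite changes of single globins: in wt HSC Hbb-bt was 8.95-fold higher after IL-1 (adjusted p = 0.000521), while Hba-a2 and Hba-a1 were at log2 changes of -3.08 and -2.93 without a call. In ko HSC Hbb-bt was at 1.22 and Hba-a2 at -2.61, neither called. In wt HSC, IL-1 against PBS was led by Rpa3 at 0.65 (SE 0.29, adjusted p = 0.602), Rrm2 at 0.67 and Pole2 at 0.60. Without the wt IL-1 library with little Kmt2c, the members' median there was -0.29, with 10 of 39 higher and 3 at an unadjusted p under 0.05, all lower (8.68% of genes). Rrm2 was then at 0.000908 (SE 0.32), so its 0.67 in wt HSC rested on that library.

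Between genotypes, HSC after PBS had a median ko against wt change of -0.04, 0.798% of genes called, and 1 member at an unadjusted p under 0.05 (9.05% of genes), Rfc5 (log2 change -0.58, SE 0.26, adjusted p = 0.52). Rfc5 stood at 81.3, 70.4, 67.6 and 24.2 CPM in ko and 112, 70.8, 93.4 and 86.5 in wt. The ranges overlapped, and ko replicate 4 lay far below every other library. Summed macrophage markers stood at 80.5 to 97.9 CPM in wt and 20.7 to 37.2 in ko after PBS, and 22.6 to 71.6 and 17.9 to 25.2 after IL-1. The 22.6 CPM was the wt library with little Kmt2c, and the others of its group had 71.6 and 52.8, above the ko range. In ko 3 of the 7 genes averaged under 1 CPM, and the part of these cells in the values was not tested. HSC after IL-1 had a median of 0.10 with 24 of 39 higher, 3 at an unadjusted p under 0.05 (8.54% of genes) and 0.0% of genes called. Cdt1 had 51.3, 34.5, 43.5 and 32.4 CPM in ko and 18.3, 9.4 and 25.4 in wt after IL-1, without overlap (log2 change 1.17, SE 0.38, adjusted p = 0.38). Pold1, the delta catalytic subunit, had 156, 109.8, 91.2 and 72.4 CPM in ko and 69.7, 36.4 and 42.8 in wt, without overlap (log2 change 1.08, SE 0.35, adjusted p = 0.384), and Mcm2 followed at 0.87 (SE 0.38, adjusted p = 0.544). Low Y-linked RNA was in 3 of 4 ko and 0 of 3 wt libraries here. With it as a covariate Cdt1 was at 0.86 (SE 0.40, adjusted p = 0.681), Pold1 at 1.12 and Mcm2 at 0.94, and none was called. Without the doubted wt library the median was 0.46, with 33 of 39 higher, 13 at an unadjusted p under 0.05 (12.3% of genes) and 0 called. The difference between the IL-1 responses of ko and wt HSC had a median of 0.23, 5 members at an unadjusted p under 0.05 (4.57% of genes) and 0.0% of genes called. Rfc5, Cdt1 and Pold1 led it, at 0.98, 1.28 and 1.19, all with an adjusted p of 0.847. Without that library the median was 0.54, with 32 higher and 12 at an unadjusted p under 0.05 (5.25% of genes). Mcm2, Pold1 and Orc1 then led it, at 1.65, 1.52 and 1.38, all with an adjusted p of 0.848.

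In HPC, the same 9 members overlapped between most groups. Mcm2 stood at 299, 216 and 189 CPM in wt HPC after PBS, 443, 217 and 254 in wt HPC after IL-1, 373, 312 and 211 in ko HPC after PBS and 492, 299 and 262 in ko HPC after IL-1. Mcm5 stood at 564, 375 and 373 CPM in wt HPC after PBS, 780.2, 466 and 578 in wt HPC after IL-1, 758, 548 and 544 in ko HPC after PBS and 818, 629 and 772 in ko HPC after IL-1. The groups overlapped for Mcm2, and for Mcm5 every ko IL-1 library lay above every wt PBS library. Cdc6 read 129, 97.5 and 72 CPM in wt HPC after PBS, 159, 98.8 and 113 in wt HPC after IL-1, 141, 108 and 116 in ko HPC after PBS and 158, 115 and 143 in ko HPC after IL-1. Pola1 read 68.8, 90.4 and 55.8 CPM in wt HPC after PBS, 60.0, 77.5 and 89.2 in wt HPC after IL-1, 74, 67.3 and 66.6 in ko HPC after PBS and 61.5, 81.2 and 92.7 in ko HPC after IL-1. Pcna read 319, 262 and 169 CPM in wt HPC after PBS, 278, 227 and 251 in wt HPC after IL-1, 316, 249 and 248 in ko HPC after PBS and 273, 268 and 345 in ko HPC after IL-1. The 4 groups overlapped in these 3 genes. Rfc1 gave 158, 166 and 146 CPM in wt HPC after PBS, 147, 157 and 171 in wt HPC after IL-1, 146, 158 and 135 in ko HPC after PBS and 149, 185 and 176 in ko HPC after IL-1. Rpa1 gave 383, 301 and 282 CPM in wt HPC after PBS, 420.4, 344 and 396 in wt HPC after IL-1, 428, 337 and 378 in ko HPC after PBS and 431, 430.4 and 501 in ko HPC after IL-1. Every ko IL-1 library of Rpa1 lay above every ko PBS library, by little in 2 of 3. Rrm2 gave 342, 337 and 172 CPM in wt HPC after PBS, 372, 288 and 345 in wt HPC after IL-1, 351, 285 and 303 in ko HPC after PBS and 350.4, 415 and 572 in ko HPC after IL-1. Tk1 gave 137, 89.4 and 81.7 CPM in wt HPC after PBS, 97.2, 112 and 144 in wt HPC after IL-1, 193, 135 and 107 in ko HPC after PBS and 105, 179.9 and 208 in ko HPC after IL-1. The ko IL-1 libraries of Rrm2 lay above every wt PBS library and overlapped the other groups.

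In wt HPC, IL-1 against PBS was led by Cdc45 at 0.49 (SE 0.23, adjusted p = 0.483) and Mcm5 at 0.48 (SE 0.23, adjusted p = 0.502), and in ko HPC by Rrm2 at 0.52 (SE 0.25, adjusted p = 0.756) and Cdc45 at 0.46 (SE 0.23, adjusted p = 0.766). HPC ko against wt after PBS had a median of 0.13, 0.257% of genes called, and 1 member at an unadjusted p under 0.05 (9.04% of genes), Mcm5 at 0.49 (SE 0.23, adjusted p = 0.548). After IL-1, HPC ko against wt had a median of 0.20 with 37 of 39 higher and 0.201% of genes called. Tyms, 208 ± 19.1 CPM in ko and 143 ± 6.25 in wt (SD, n = 3), led it at 0.54 (SE 0.23, adjusted p = 0.86) and was the 1 member at an unadjusted p under 0.05 (5.21% of genes). Low Y-linked RNA was unequal here, in 2 of 3 ko and 1 of 3 wt libraries. With it as a covariate 0 members had such a p (4.51% of genes), Rrm2 went from 0.41 to 0.21 and the members' median to 0.12, with 34 of 39 higher. Same-numbered libraries of these 2 groups deviated together (correlations of 0.158 to 0.37 in 3 pairs), and with the number as a block 0 members were called and 3 had an unadjusted p under 0.05 (6.61% of genes). The difference between the IL-1 responses of ko and wt HPC had a median of 0.05, 0.0% of genes called and 0 members at an unadjusted p under 0.05 (2.21% of genes). The IL-1 response of wt HPC minus that of wt HSC had a median of 0.11, 0.0228% of genes called and 1 member at an unadjusted p under 0.05 (5.77% of genes), Rpa3 (log2 change -0.88, SE 0.38, adjusted p = 0.818). Without the doubted wt HSC library that median was 0.46, with 6 members at an unadjusted p under 0.05 (6.88% of genes) and 0 called.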

How the data were processed

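RNA from sorted HSC, HPC, pGM and GMP was extracted with a micro-scale column kit and made into libraries with a SMARTer-type kit, per the labels' protocols. The values used are raw read counts per gene, as deposited by the authors in 2 tables, 1 per experiment. STAR 3.0.4 and featureCounts 1.4.5 (of Subread) are named in the submitters' processing notes. For the genome build and the strand setting: not given in the sources used here. Columns were tied to libraries by their titles, and 0 were left over. The first table holds 3 rows that are no mouse genes, which were left out. Gene IDs without a symbol held 0.159% and 0.138% of counts. No 2 libraries were identical.

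Counts were tested with edgeR 4.0.16 (quasi-likelihood, robust, TMM factors, filterByExpr with a minimum count of 10 and a total of 15) in R 4.3.3. Every adjusted p here is from edgeR with Benjamini-Hochberg adjustment over all genes of the fit, unless DESeq2 is named. Each population had its own fit for genotype and IL-1. Population comparisons and differences between effects came from all 48 or 27 libraries of an experiment in 1 fit. Log2 levels used a prior count of 2. Fits were tested on simulated data with known changes. The alternatives were DESeq2 1.42.0, RLE scaling, no low-count filter, a block for the replicate number, 1 fit over all libraries, Y-linked RNA (Ddx3y, Eif2s3y, Kdm5d and Uty) as a covariate, and leaving out each library. Library size without TMM, and genotype (with treatment) and number as a replicate block, were added after seeing the data. limma 3.58.1 was loaded by edgeR only.

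The members, the other gene lists and the named genes were chosen with earlier results of these data known. Any member could be named. Members that passed were named, beyond 10 by the 4 smallest p-values, and where none passed up to 3 with the smallest p. Values in every library were given for 9 fixed members and for the leading members of comparisons with a call. Per-library values of Gins1, Rfc2, Cdc45, Mcm6, Mcm7, Mcm10, Orc1, Lig1, Pole, Pole2, Rrm1, Pold1, Cdt1 and Rfc5 beyond that rule were chosen after their values were seen. 1 gene of the S phase checkpoint list, counted with that list, is not reported here by name. Gene neighbours came from the GENCODE M21 annotation, matched by gene ID. Promoters came from RefSeq's table.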

Additional observations from a re-analysis of the deposited data

Results flagged for a closer look

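In groups of 4 libraries, 150 sets of values were searched for a library that stood apart by Dixon's ratio, and 4 did. The sets were those of the 9 fixed members and of the mean of all 39, so the other members were not searched. Chance alone marks about 1 set in 20, so the 4 found are no more than chance alone would mark. Rpa1 stood at 556 CPM in GMP het replicate 4, and the other 3 libraries of its group lay between 451 and 461. Rpa1 was 163 CPM in HSC ko replicate 3, below the 307 to 324 of the others. Rrm2 was 639 CPM in GMP ko replicate 1, above the 617 to 620 (619.6 at most) of the others, and all 4 lay below every wt and het GMP library. The mean log2 CPM of the 39 members was 7.08 in pGM wt replicate 2, below the 7.29 to 7.33 of the others.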

How the results depend on the processing

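Of 495 recomputed counts of called members, 29 differed from the main count by more than 1.5 times, and 1 of 135 named-member values reversed: Gins3 in GMP against HSC, at -0.019 with library size in place of TMM. In pGM against HPC (3 called), 1 was called with RLE scaling, 0 with library size only, 1 with no low-count filter, 5 with the replicate number as a block and 7 with genotype and number as a replicate block. In GMP against pGM (8 called), 4 were called with no low-count filter. DESeq2 called 1 member in GMP ko against wt, and the Y-linked covariate gave 1 in HSC ko against wt. Of the members called, 24 of 33 in HPC, 33 of 38 in pGM and 30 of 38 in GMP against HSC were called in every alternative, as were 0 of 3, 2 of 8 and 3 of 15 in pGM against HPC, GMP against pGM and the second experiment. The cause was not tested for any of these.

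With the replicate number as a block, wt HSC IL-1 against PBS gave 1 call, Pold1 at -0.82, and HSC ko against wt after IL-1 gave 3, Cdt1, Mcm2 and Pold1 at 1.33, 1.1 and 1.31 (adjusted p = 0.0433, 0.00795 and 0.00101). The difference of the HSC IL-1 responses gave 2, the second experiment's HPC against HSC 26, and the IL-1 response of HPC minus HSC 1, as did genotype, treatment and number as a replicate block. Block results that use wt HSC after IL-1 hold the doubted library and are given only with it. Same-numbered libraries deviated together in every pair in 1 comparison, HPC ko against wt after IL-1, where the block changed no call. Elsewhere the libraries share only a number, and in the HSC comparisons after IL-1 the pairs' correlations ran from -0.054 to 0.166 for ko against wt.

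Leaving out 1 library at a time gave 28 to 34 calls in HPC, 36 to 38 in pGM and 37 to 38 in GMP against HSC, 0 to 5 in pGM against HPC, 3 to 7 in GMP against pGM, 3 to 17 in the second experiment's HPC against HSC, and 0 in every genotype and IL-1 comparison. Low counts limit little here: the lowest count of a member in the first experiment was 34, for Orc1 in a het HSC library.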

Other observations

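Among the 4 ko against wt comparisons of untreated populations, 14 of the 39 members had a negative log2 change in all 4 and 3 a positive one (35.9% and 7.69%), beside 9.55% and 13.7% of the 11509 genes tested in all 4. Some of these changes were close to 0, such as -0.002 for Rfc4 in GMP. The 4 comparisons use different libraries, but ko replicates 1 and 4 of every population share low Y-linked RNA. Same-numbered libraries may thus come from the same animals, so the 4 comparisons may not be independent. The ratio of Rrm2 to Rrm1 CPM was 0.797 ± 0.10 in ko HPC (SD, n = 4), 0.603 ± 0.064 in wt and 0.57 ± 0.11 in het. In the second experiment's HPC it was 0.66 ± 0.022 in ko and 0.639 ± 0.16 in wt after PBS, and 0.773 ± 0.017 in ko and 0.701 ± 0.065 in wt after IL-1 (SD, n = 3), with overlapping libraries in both pairs. The ratio of Pole2 to Pole was 0.653 ± 0.036 in ko HSC and 0.44 ± 0.096 in wt HSC, and the ko libraries, from 0.624 to 0.705, lay above the highest wt library at 0.551. In het HSC it was 0.479 ± 0.077. In the second experiment's HSC it was 0.528 ± 0.24 in ko and 0.384 ± 0.14 in wt after PBS (SD, n = 4). After IL-1 it was 0.754 ± 0.27 in ko (n = 4) and 0.599 ± 0.33 in wt (n = 3, with the doubted library). Libraries overlapped in both pairs. In untreated HSC the ratio follows Pole, as Pole2 itself had a ko against wt log2 change of 7.29e-05.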
